A study of Homo sapiens with 6 samples.

Results

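The genes described here are 54 genes of DNA replication and S phase, listed by symbol from the machinery that licenses, unwinds and copies DNA. They were looked up in a deposited table of 16200 genes. All 54 were in the table and all 54 passed the filter on low counts, among 12565 tested genes. The measurement was poly(A)-selected RNA sequencing of RBE cells, an established human cholangiocarcinoma (bile duct cancer) line. There were 3 libraries labelled NC, taken as the reference, and 3 labelled sgKCNQ3, a label that usually stands for a single guide RNA against KCNQ3, the gene of a voltage-gated potassium channel subunit. The sources used here state no further treatment, time or clone for either group, and they do not say whether the guide worked with a cutting or a silencing enzyme. Whether a group's libraries were separate cultures is also not stated, and the p-values therefore reflect the library-to-library spread, which may be technical.

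Before S phase, the origin recognition complex, CDC6 and CDT1 load the MCM helicase onto DNA, and geminin blocks a second loading by binding CDT1. In S phase, CDC45 and the GINS complex join the MCM ring to form the active helicase, primase and the DNA polymerases copy the strands, and the PCNA clamp, its RFC loaders, FEN1 and LIG1 hold polymerases on DNA and finish the lagging strand. Many of these genes are targets of E2F transcription factors, and their RNAs usually rise together late in G1 and in S phase of dividing cells.

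Total estimated counts were 15601283 to 16089500 per library. KCNQ3, the gene named in the label, had 256, 257 and 252 counts in the NC libraries and 222, 206 and 191 in the sgKCNQ3 libraries, so the groups did not overlap. Its log2 fold change was -0.33 (SE 0.0841, adjusted p = 0.00446, edgeR quasi-likelihood test), a call that was lost on the TPM scale (adjusted p = 0.14 by limma). TPM is a count per transcript length scaled to a fixed library total. All 8 bile duct epithelium markers on the list were present, at 18.5 TPM or more. Their summed level was 4070 to 4160 TPM in NC and 4740 to 4850 TPM in sgKCNQ3, a difference whose part in the results below was not tested. Among markers of other cell types, the hepatocyte list summed to 73.0 to 74.9 TPM in NC and 76.0 to 85.5 in sgKCNQ3, nearly all of it SERPINA1, and the leukocyte list to 94.5 to 101 and 80.4 to 88.3 TPM, nearly all of it CD68. PTPRC, the pan-leukocyte marker, was at 0.04 TPM or less, fibroblast markers summed to at most 2.83 TPM and endothelial markers to at most 0.57 TPM in any library.

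Replication genes did not move as a block. By edgeR with Benjamini-Hochberg adjustment over all tested genes at a threshold of 0.05, 5 of the 54 were higher in sgKCNQ3 (MCM3, MCM4, UHRF1, CCNE2 and TIPIN), 13 were lower and 36 did not pass. The 18 called genes were 33.3% of the members, against a background of 29.1% called among all tested genes, so the share that changed was near that of the whole table. Calls upward made up 9.26% of the members and calls downward 24.1%, where all tested genes gave 14.0% and 15.1%. The median log2 fold change of the members was -0.019, beside -0.007 for all tested genes, and 29 members lay below 0 and 25 above. Changes were small. The log2 fold changes ran from -0.39 (TK1) to 0.35 (TIPIN), and no member reached 0.4 in either direction. The median absolute log2 fold change was 0.1 in the members and 0.12 over all tested genes. In bulk RNA, fewer cells in S phase and less RNA of these genes per cell cannot be told apart.

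**Figure D1:**
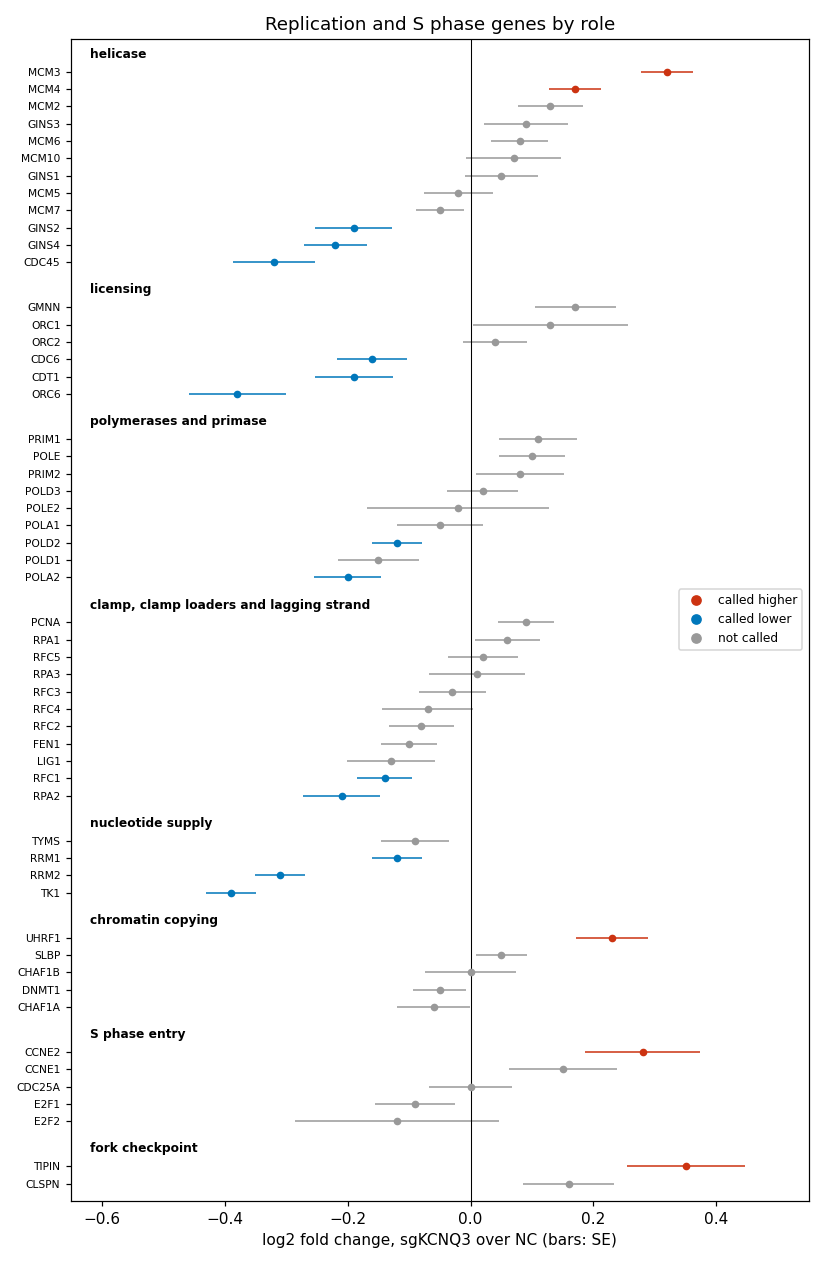
Log2 fold change of sgKCNQ3 over NC for each of the 54 replication and S phase genes, grouped by role, with error bars of 1 SE, red points for genes called higher, blue for lower and grey for not called. Called genes on both sides of 0 are found among the helicase subunits, while the 3 called nucleotide supply genes are all below 0.

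Read library by library, the normalised counts (CPM, counts scaled to a fixed total with TMM library sizes) did not overlap between the groups for 26 of the 54 members, or 48.1%, against 41.7% of all tested genes. Of the 18 called members, 17 had groups that did not overlap, and CDC6 was the exception. Calls and overlap rest on the same counts, so this adds no separate evidence for the calls. The members' CPM varied within a group by a median coefficient of variation of 3.63% in NC and 5.15% in sgKCNQ3. The sgKCNQ3 libraries were not evenly placed: replicate 2 was the highest of its group for 32 of the 54 members, against 8 for replicate 1 and 14 for replicate 3. Summed over all 54 genes, the NC libraries held 3370, 3380 and 3350 CPM and the sgKCNQ3 libraries 3230, 3360 and 3230 CPM. The sgKCNQ3 mean was 97.2% of the NC mean, and sgKCNQ3 replicate 2 lay inside the range of the NC libraries.

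**Figure D2:**
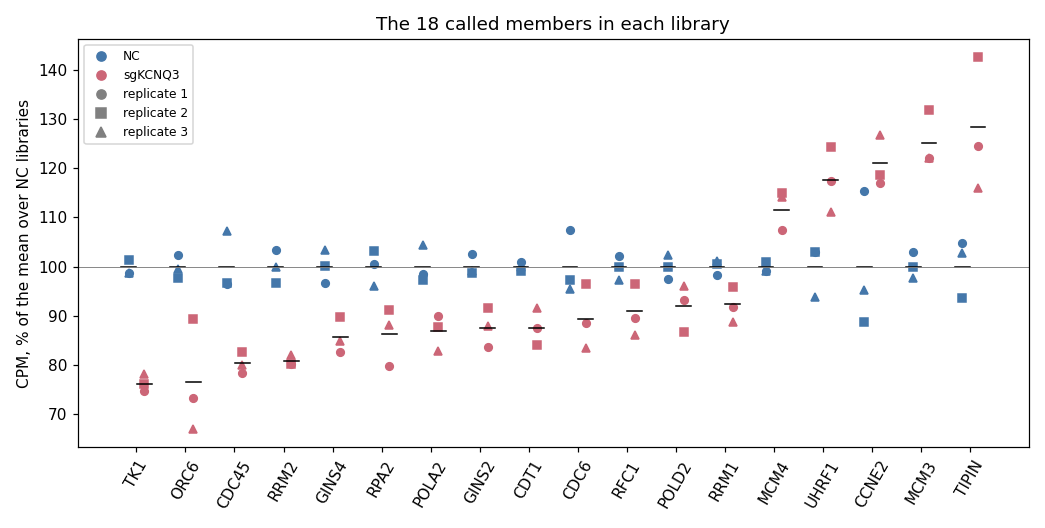
CPM of the 18 called members in each of the 6 libraries, as a percentage of the mean over the 3 NC libraries, with black bars at group means. The 5 higher genes lie above the NC mean in every sgKCNQ3 library and the 13 lower genes below it, and CDC6 in sgKCNQ3 replicate 2 lies among the NC libraries.

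The balance of calls depended on how the libraries were put on a common scale. With library size alone, 8 members were higher and 7 lower, where 18.5% of all tested genes were higher and 10.2% lower. On log2(TPM + 1), 12 members were higher and 4 lower, beside 20.5% and 4.8% of all tested genes. With each library's trends over transcript length and GC content removed, 8 were higher and 11 lower, beside 10.5% and 15.9%. DESeq2 called 4 members higher and 6 lower (7.41% and 11.1%), near the 9.48% and 10% of all tested genes. Without sgKCNQ3 replicate 1, 5 were higher and 6 lower (11.1%), beside 11.0% and 10.6% of all genes tested there. Without NC replicate 3, 4 were higher and 8 lower (14.8%), beside 10.2% and 11.1%. The share of members called lower was thus close to that of all genes with DESeq2 and without sgKCNQ3 replicate 1. The TPM scale shifted the whole table, with a median of 0.065 over all tested genes. Member transcripts had a median length of 3224 bases, against 3484 bases over all tested genes. Across the members, the rank correlation between log2 fold change and length was 0.03, while across all tested genes it was 0.32. With GC content it was -0.31 across the members and -0.26 across all tested genes. All 4 values are descriptions over genes that share libraries. Called members that were higher had a median length of 3330 bases and those that were lower 3076 bases. Of the 18 called members, 8 were called in the same direction under all 17 alternative settings. They were MCM3, MCM4, UHRF1 and TIPIN, which were higher, and CDC45, ORC6, RRM2 and TK1, which were lower. The matching share among all called genes is not given here.

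**Figure D3:**
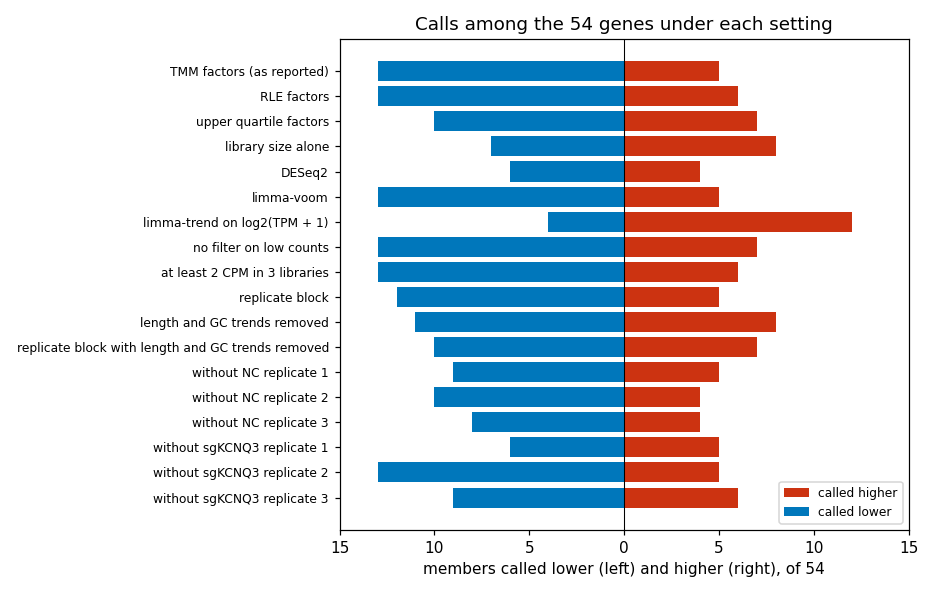
Number of the 54 members called higher (red, right) and lower (blue, left) in sgKCNQ3 under each processing setting. The split is 5 higher and 13 lower as reported, 8 and 7 with library size alone, and 12 and 4 on the TPM scale.

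Within the replicative helicase, 2 subunits of the MCM ring were higher, and 3 of the proteins that switch the ring on were lower. The 2 called higher were 16.7% of the 12 helicase genes, near the 14.0% of all tested genes. The 3 called lower stood beside 15.1% of all tested genes. MCM3 was the most changed ring subunit. Its RNA stood at 136, 132 and 129 CPM in NC and at 161, 174 and 161 CPM in sgKCNQ3, with every sgKCNQ3 library above every NC library. This was a rise of 25.1% (log2 fold change 0.32, SE 0.0426, adjusted p = 3.63e-06). MCM4 followed at 120, 122 and 120 CPM against 130, 139 and 138 CPM, again without overlap. Its log2 fold change was 0.17 (SE 0.0418, adjusted p = 0.00408), a rise of 12.1%. The other ring subunits did not pass the test, though 7 alternative settings called MCM2 higher and 1 called MCM6 higher. MCM2 was at 64.8, 67.4 and 68.3 CPM against 70.4, 79.8 and 69.3 CPM (log2 fold change 0.13, adjusted p = 0.0673), MCM6 had a log2 fold change of 0.08 (adjusted p = 0.213), MCM5 of -0.02 (adjusted p = 0.8) and MCM7 of -0.05 (adjusted p = 0.313). Summed over MCM2 to MCM7, the ring stood at 694, 705 and 675 CPM in NC and 728, 761 and 731 CPM in sgKCNQ3, so the sgKCNQ3 mean was 107% of NC. The MCM7 exons are shared over 8.94% of their bases with AP4M1 on the other strand, and the MCM2 exons over 22.7% with an antisense gene, so their counts may include reads of those neighbours where strand was not used.

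CDC45, which joins the loaded ring as it is activated, went the other way. It was at 29.4, 29.5 and 32.7 CPM in NC and at 23.9, 25.2 and 24.4 CPM in sgKCNQ3, with all 3 sgKCNQ3 libraries below all NC libraries. Its level fell by 19.8% (log2 fold change -0.32, SE 0.0668, adjusted p = 0.000842). The GINS complex, the other activating partner, was divided. GINS4 was lower in every sgKCNQ3 library, at 59.1, 61.3 and 63.3 CPM against 50.6, 54.9 and 51.9 CPM (log2 fold change -0.22, SE 0.0519, adjusted p = 0.00218), a call that was lost on the TPM scale. An antisense gene covers 21.2% of the GINS4 exon bases. GINS2 was also lower, at 33.1, 31.9 and 32.0 CPM against 27.0, 29.6 and 28.4 CPM (log2 fold change -0.19, SE 0.0627, adjusted p = 0.0239), and 7 of the 17 alternative settings did not call it. GINS1 and GINS3 did not pass, with log2 fold changes of 0.05 and 0.09 (adjusted p = 0.6 and 0.367), nor did MCM10, a factor needed when the helicase starts, at 0.07 (adjusted p = 0.549). Together CDC45 and the 4 GINS genes stood at 178, 181 and 184 CPM in NC and at 161, 169 and 164 CPM in sgKCNQ3, with the mean at 91.0% of NC and no overlap.

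Levels of different helicase genes can be compared only per transcript length. In TPM, MCM7 was the most abundant helicase RNA, at a mean of 161 in NC and 165 in sgKCNQ3. MCM3 came next, at 71.1 in NC and 94.5 in sgKCNQ3, and MCM4 at 47.9 and 57.2. MCM6 and MCM2 were close to each other, at 33.9 and 31.8 in NC and 38.1 and 37.0 in sgKCNQ3. MCM5 was the lowest of the ring, at 27.8 and 29.7, although the 6 proteins form a ring with 1 copy of each. In NC, MCM7 exceeded MCM5 5.81-fold. CDC45 was near MCM5 in NC at 28.8 TPM and lower in sgKCNQ3 at 24.4 TPM, and MCM10 was the least abundant at 7.67 and 8.56 TPM.

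**Figure D4:**
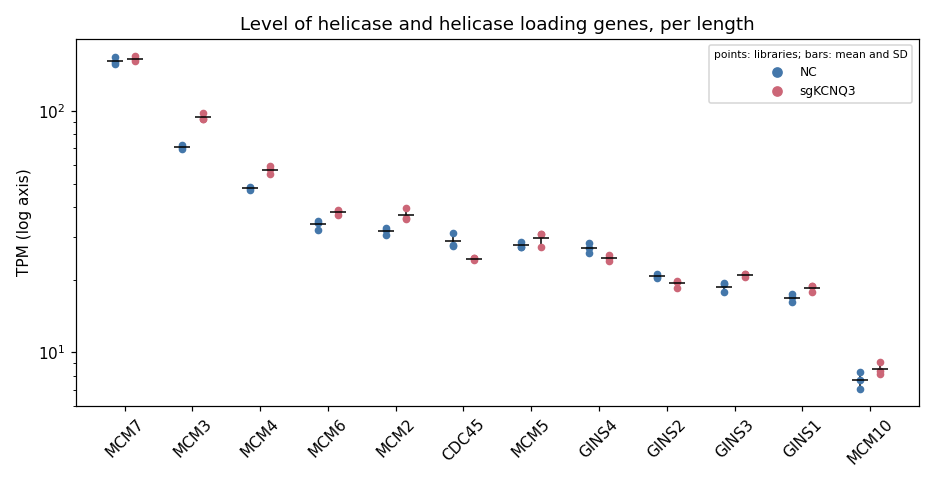
Level of each helicase gene in TPM (log axis) in the 3 NC and 3 sgKCNQ3 libraries, with bars for the mean and SD. MCM7 lies above all other subunits in every library, MCM3 shows a gap between groups, and MCM10 is the lowest.

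Of the 6 licensing genes, 3 were lower in sgKCNQ3, where 15.1% of all tested genes were lower, and none passed upward. ORC6, the smallest subunit of the origin recognition complex, was at 34.8, 33.2 and 33.8 CPM in NC and at 24.9, 30.4 and 22.8 CPM in sgKCNQ3. The groups did not overlap, but sgKCNQ3 replicate 2 lay between the NC libraries and its own partners. On average ORC6 fell by 23.4% (log2 fold change -0.38, SE 0.0789, adjusted p = 0.000858). CDT1, the MCM loading factor, was at 30.9, 30.3 and 30.6 CPM against 26.8, 25.7 and 28.0 CPM, without overlap (log2 fold change -0.19, SE 0.0633, adjusted p = 0.0266). CDC6, the ATPase that loads MCM with CDT1, was at 71.2, 64.5 and 63.3 CPM against 58.7, 63.9 and 55.3 CPM (log2 fold change -0.16, SE 0.0568, adjusted p = 0.0342). Its groups overlapped at sgKCNQ3 replicate 2. The CDT1 and CDC6 calls were the less firm of the 3, since each was missed by 9 alternative settings, not all of them the same.

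Geminin (GMNN), the inhibitor of CDT1, was the licensing gene with the highest log2 fold change, at 0.17, and missed the threshold (adjusted p = 0.0531). It was at 31.4, 31.7 and 30.7 CPM in NC and at 33.6, 38.9 and 33.2 CPM in sgKCNQ3, with all sgKCNQ3 libraries above NC. Of the larger ORC subunits among the members, neither passed. ORC1 had a log2 fold change of 0.13 (adjusted p = 0.462) at a mean of 5.65 CPM in NC, the lowest of the licensing genes, and ORC2 had one of 0.04. Added together, ORC6, CDC6 and CDT1 held 137, 128 and 128 CPM in NC and 110, 120 and 106 CPM in sgKCNQ3. The sgKCNQ3 mean was 85.7% of NC. This sum holds only the licensing genes called lower, without GMNN, ORC1 and ORC2. Its fall follows from that choice and adds no separate evidence.

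Promoter sequences were looked at because loading factors and helicase subunits are known E2F targets. Windows from 250 bases before to 50 bases after the RefSeq transcription start (GRCh38.p14) were matched by gene identifier for 47 of the 54 members. Only the first listed window of each gene was used. They were searched on both strands for the E2F letters TTTCCCGC, TTTCGCGC, TTTGCCGC and TTTGGCGC, for CCAAT, the letters bound by NF-Y, and for TTTGAA or TTCGAA, the letters of the cell cycle homology region (CHR). The windows below belong to 4 called members with an E2F match, MCM3 and UHRF1 called higher and CDC6 and CDT1 called lower. They show E2F letters in genes called in opposite directions. These 4 calls are not equally firm. MCM3 and UHRF1 kept their calls under all 17 alternative settings, but CDC6 and CDT1 each under only 8. GINS2 and POLA2, also called lower with an E2F match, kept theirs under 10 and 15, and their windows are not printed. The 4 printed windows differ in the letters of their matches and in their number of CCAAT matches. They lie at chr6:52284693-52284992 (minus strand), chr19:4909251-4909550 (plus strand), chr17:40287629-40287928 (plus strand) and chr16:88803539-88803838 (plus strand). Capitals mark the E2F and CCAAT matches, either as searched or as their reverse complement.
MCM3: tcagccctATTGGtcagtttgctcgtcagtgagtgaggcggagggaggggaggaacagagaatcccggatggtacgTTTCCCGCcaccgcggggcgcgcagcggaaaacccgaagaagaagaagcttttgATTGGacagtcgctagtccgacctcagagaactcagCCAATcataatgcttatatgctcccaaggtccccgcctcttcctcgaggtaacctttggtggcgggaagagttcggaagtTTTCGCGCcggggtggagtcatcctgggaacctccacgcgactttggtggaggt
UHRF1: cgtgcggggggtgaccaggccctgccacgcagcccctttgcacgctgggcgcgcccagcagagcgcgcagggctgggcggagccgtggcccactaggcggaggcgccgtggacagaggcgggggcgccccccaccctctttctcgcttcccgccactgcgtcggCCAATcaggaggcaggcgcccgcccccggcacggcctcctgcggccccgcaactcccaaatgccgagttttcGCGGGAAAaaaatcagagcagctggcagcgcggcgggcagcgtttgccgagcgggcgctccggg
CDC6: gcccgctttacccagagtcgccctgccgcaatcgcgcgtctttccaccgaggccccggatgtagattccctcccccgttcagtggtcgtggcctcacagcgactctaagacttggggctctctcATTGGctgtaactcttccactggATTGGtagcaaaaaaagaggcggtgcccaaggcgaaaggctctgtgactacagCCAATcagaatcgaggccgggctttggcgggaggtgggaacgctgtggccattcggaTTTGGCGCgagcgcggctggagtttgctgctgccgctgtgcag
CDT1: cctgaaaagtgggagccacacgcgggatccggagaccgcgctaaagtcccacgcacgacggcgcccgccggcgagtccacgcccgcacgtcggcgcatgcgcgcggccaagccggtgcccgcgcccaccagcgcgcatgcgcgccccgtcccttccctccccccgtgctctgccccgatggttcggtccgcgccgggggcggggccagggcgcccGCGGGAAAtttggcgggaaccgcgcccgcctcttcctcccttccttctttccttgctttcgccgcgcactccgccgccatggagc

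In MCM3 the E2F letters occur at bases 77 to 84 and again at bases 247 to 254 across the start site, counted from the first printed base, with 3 CCAAT matches. In UHRF1 the E2F match, GCGGGAAA on the printed strand, is at bases 237 to 244, and 1 CCAAT match precedes it. In CDC6 the E2F match lies just after the start at bases 258 to 265, with 3 CCAAT matches before it. In CDT1 there is 1 E2F match, GCGGGAAA at bases 216 to 223, and no CCAAT match. A match is a string of letters and was not measured as a binding site. Spellings outside the searched letters were not counted. TTTGGCGG, which differs from a searched string only in its last base, stands unmarked in the CDC6 and CDT1 windows.

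Over all members with a window, 23 of 47 (48.9%) held E2F letters, beside 5.4% of the 10354 tested genes with a window and 3.33% of all 27305 windows. CCAAT was found in 27 members (57.4%), beside 36.6% of tested genes and 35.7% of all windows, and both together in 13 (27.7%), beside 2.32% of tested genes. CHR letters were found in 2 members (4.26%), beside 11.1% of tested genes and 16.6% of all windows. By direction, E2F letters were found in 2 of 3 members called higher, 4 of 11 called lower and 17 of 33 that did not pass. CDC45, ORC6, RRM2 and TK1, the members called lower under every alternative setting, did not hold the E2F letters searched. Neither did TIPIN, which was called higher under every setting. Other spellings were not searched, so a lack of matches does not show a lack of E2F sites. CCAAT was found in 3 of 3 called higher, 8 of 11 called lower and 16 of 33 that did not pass, a difference that was not tested.

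Of the 9 polymerase and primase genes, 2 (22.2%) were lower, beside 15.1% of all tested genes, and none was higher. POLA2, the regulatory subunit of the polymerase alpha and primase complex that starts each new strand, was at 50.8, 50.2 and 53.9 CPM in NC and at 46.4, 45.3 and 42.8 CPM in sgKCNQ3. All sgKCNQ3 libraries lay below all NC libraries. The log2 fold change was -0.20 (SE 0.0547, adjusted p = 0.00622), and the call was lost on the TPM scale and without NC replicate 3. An unnamed protein-coding gene model covers 35.1% of the POLA2 exon bases on the same strand, so its counts may have been divided. POLD2, an accessory subunit of the lagging strand polymerase delta, was at 241, 247 and 253 CPM against 230, 214 and 237 CPM, without overlap. Its log2 fold change was -0.12 (SE 0.0407, adjusted p = 0.0245), a call missing from 10 alternative settings. In TPM it was the most abundant of all 54 genes, at means of 275 in NC and 267 in sgKCNQ3.

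The catalytic subunits did not pass. POLD1 was the nearest, at 37.6, 33.2 and 36.4 CPM against 29.7, 32.9 and 33.7 CPM (log2 fold change -0.15, adjusted p = 0.0786), with overlapping groups. POLE, the leading strand polymerase, had a log2 fold change of 0.10 (adjusted p = 0.179), and PRIM1, the catalytic primase subunit, of 0.11 (adjusted p = 0.193). POLE2 was at only 3.64 to 4.55 CPM across the 6 libraries, which limits the precision of its log2 fold change of -0.02.

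Among 11 genes of the clamp, its loaders and the lagging strand, 2 were lower and none higher. The share lower was 18.2%, near the 15.1% of all tested genes. RPA2, a subunit of the RPA complex that coats single-stranded DNA, was at 37.5, 38.5 and 35.8 CPM in NC and at 29.8, 34.0 and 32.9 CPM in sgKCNQ3, without overlap. The log2 fold change was -0.21 (SE 0.0627, adjusted p = 0.0135), and 5 alternative settings did not call it. Its partner subunits RPA1 and RPA3 had log2 fold changes of 0.06 and 0.01 and did not pass. RFC1, the large subunit of the clamp loader, was at 146, 143 and 139 CPM against 128, 138 and 123 CPM, without overlap (log2 fold change -0.14, SE 0.0447, adjusted p = 0.0208), and 6 alternative settings did not call it. RFC2 to RFC5 had log2 fold changes between -0.08 and 0.02. The 5 loader subunits summed to 336, 335 and 336 CPM in NC and 316, 330 and 305 CPM in sgKCNQ3, with the mean at 94.5% of NC.

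PCNA, the sliding clamp and a common marker of proliferating cells, did not pass, though 4 alternative settings called it higher. It was at 134, 140 and 127 CPM in NC and at 133, 146 and 147 CPM in sgKCNQ3, and the groups overlapped (log2 fold change 0.09, adjusted p = 0.164). FEN1, the flap endonuclease that trims Okazaki fragments, was at 75.6, 76.8 and 75.0 CPM against 69.7, 72.1 and 70.8 CPM. Its groups did not overlap, but the log2 fold change of -0.10 had an adjusted p of 0.111. LIG1, the ligase that seals the fragments, had a log2 fold change of -0.13 (adjusted p = 0.176).

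Nucleotide supply was the role with the highest share of calls, with 3 of 4 genes (75.0%) lower, beside 15.1% of all tested genes. Roles were set with earlier results known. TK1, the thymidine salvage kinase of S phase cells, was at 145, 149 and 145 CPM in NC and at 110, 112 and 115 CPM in sgKCNQ3. The groups were far apart relative to their spread. The log2 fold change of -0.39 (SE 0.0407, adjusted p = 1.14e-07) had the smallest adjusted p of all 54 genes, and the level fell by 23.4%. RRM2, the S phase subunit of ribonucleotide reductase, which makes deoxyribonucleotides, was at 156, 146 and 151 CPM against 121, 121 and 124 CPM, without overlap. Its log2 fold change was -0.31 (SE 0.0413, adjusted p = 4.69e-06), and the level fell by 19.2%. An unnamed protein-coding gene model covers 20.2% of the RRM2 exon bases on the same strand. RRM1, the large subunit of the same enzyme, moved less, from 167, 171 and 172 CPM to 156, 163 and 151 CPM (log2 fold change -0.12, SE 0.0405, adjusted p = 0.028), and 8 alternative settings did not call it.

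TYMS, thymidylate synthase, the enzyme of the other route to thymidine nucleotides, did not pass. It was at 101, 98.3 and 106 CPM in NC and at 88.7, 107 and 92.1 CPM in sgKCNQ3, with replicate 2 above all NC libraries (log2 fold change -0.09, adjusted p = 0.259). ENOSF1, on the opposite strand, covers 39.1% of the TYMS exon bases, so the counting of TYMS is uncertain. The 4 genes together stood at 569, 564 and 574 CPM in NC and at 476, 503 and 481 CPM in sgKCNQ3. The sgKCNQ3 mean was 85.5% of NC, with all 3 sgKCNQ3 libraries below NC.

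Among 5 genes that copy chromatin, UHRF1 was higher and none was lower. UHRF1, which recruits the maintenance DNA methyltransferase to newly copied DNA, was at 41.5, 41.5 and 37.8 CPM in NC and at 47.3, 50.1 and 44.8 CPM in sgKCNQ3, without overlap. The rise was 17.7% (log2 fold change 0.23, SE 0.0589, adjusted p = 0.00386). DNMT1, the methyltransferase itself, was at 120, 127 and 120 CPM against 118, 122 and 115 CPM and did not pass (log2 fold change -0.05). The chromatin assembly factor subunits CHAF1A and CHAF1B had log2 fold changes of -0.06 and -0.00, and SLBP, which binds histone mRNAs, had one of 0.05 at 110 to 117 CPM in all libraries.

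In the S phase entry group, 1 of 5 genes was higher. CCNE2, a cyclin that activates CDK2 at the start of S phase, was at 14.3, 11.0 and 11.8 CPM in NC and at 14.5, 14.7 and 15.7 CPM in sgKCNQ3. NC replicate 1 almost reached the sgKCNQ3 libraries. The log2 fold change was 0.28 (SE 0.0942, adjusted p = 0.028), and 6 alternative settings did not call it, among them those without NC replicate 2, NC replicate 3 or sgKCNQ3 replicate 3. INTS8, on the opposite strand, covers 37.0% of the CCNE2 exon bases. CCNE1, its relative, was at 11.7, 13.8 and 13.9 CPM against 14.3, 14.4 and 15.3 CPM (log2 fold change 0.15, adjusted p = 0.197). E2F1, an activating E2F factor, was at 33.5, 36.7 and 36.0 CPM against 35.7, 30.6 and 33.5 CPM (log2 fold change -0.09, adjusted p = 0.324). CDC25A, the phosphatase that activates CDK2, had a log2 fold change of 0.00, and E2F2, the least abundant of the 54 genes at a mean of 1.43 TPM in NC, had one of -0.12 (adjusted p = 0.615).

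Of the 2 fork checkpoint genes, TIPIN was higher. TIPIN, the partner of TIMELESS in the complex that stabilises forks, was at 11.1, 9.92 and 10.9 CPM in NC and at 13.2, 15.1 and 12.3 CPM in sgKCNQ3, without overlap. The log2 fold change was 0.35 (SE 0.0961, adjusted p = 0.00726), a rise of 27.6% and the highest of the 54 genes. A pseudogene, RPL9P25, covers 21.0% of the annotated TIPIN exon bases on the same strand. CLSPN, the claspin adaptor of the checkpoint kinase CHEK1, was at 17.6, 17.2 and 18.2 CPM against 19.9, 19.1 and 20.1 CPM. Its groups did not overlap, but the log2 fold change of 0.16 had an adjusted p of 0.112.

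Ratios between partner genes within a library do not depend on library scaling. The pairs below were picked after their values had been seen, and the ratios are given as a description with no test. The count ratio of MCM3 to MCM7 was 0.561 ± 0.0201 in the NC libraries (SD, n = 3) and 0.727 ± 0.0356 in the sgKCNQ3 libraries (SD, n = 3), which is 1.3 times NC. For CDC45 to MCM3 the ratio went from 0.216, 0.223 and 0.255 (NC) to 0.148, 0.145 and 0.152 (sgKCNQ3), or 0.641 times NC, and was the furthest from 1 of the 14 ratios computed. Dividing CDT1 counts by those of its inhibitor GMNN gave 0.984, 0.956 and 0.994 for the NC libraries. The sgKCNQ3 libraries had lower values, 0.798, 0.661 and 0.843. Counts are not scaled by transcript length, so such ratios do not compare the levels of different genes. ORC6 over ORC2 was 0.582, 0.567 and 0.542 in NC against 0.391, 0.478 and 0.391 for sgKCNQ3. The 2 subunits of ribonucleotide reductase, RRM2 over RRM1, gave 0.931, 0.854 and 0.875 in NC and 0.774, 0.744 and 0.819 in sgKCNQ3. TIPIN over TIMELESS was 1.34 times NC, UHRF1 over DNMT1 1.22 times, TK1 over TYMS 0.817 times, and RPA2 over RPA1 and GINS4 over GINS1 were each 0.831 times NC. In all of these the groups did not overlap, whereas POLA2 over POLA1 and CCNE2 over CCNE1 overlapped.

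**Figure D5:**
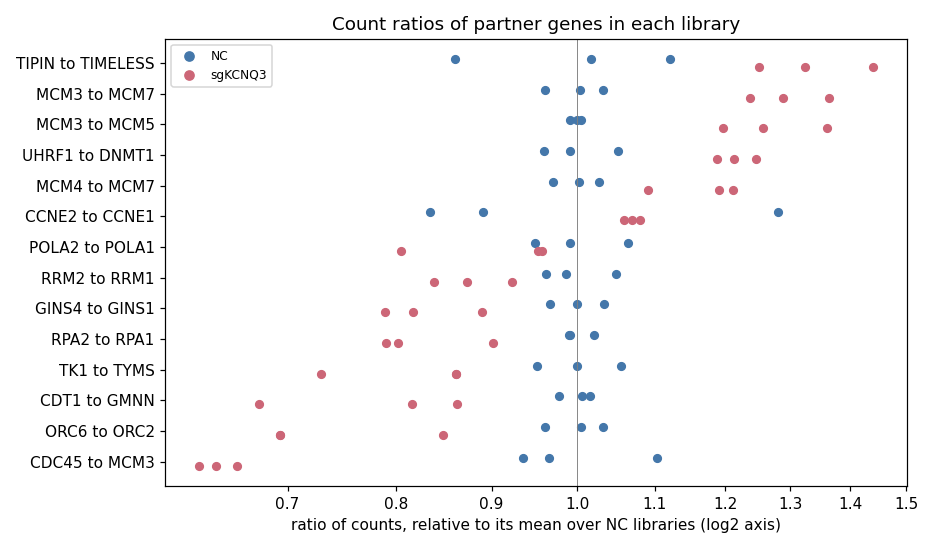
Ratio of estimated counts of partner genes in each library, divided by the NC mean of that ratio (log axis). CDC45 over MCM3 lies lowest, at a mean of 0.641 of NC, while MCM3 over MCM7 and TIPIN over TIMELESS lie above 1.

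Beyond the members, a list of 60 other genes of replication and its control was counted in the same fit, and 8 were higher and 17 lower, with a median log2 fold change of -0.044. These were 13.3% and 28.3% of the list (41.7% called), where all tested genes gave 14.0% and 15.1% (29.1% called). The fork and polymerase genes had 1 higher and 6 lower of 13, the licensing and firing genes 2 and 2 of 14, nucleotide supply 0 and 2 of 9, histone and chromatin genes 1 and 3 of 10, and E2F, RB and CDK control genes 4 and 4 of 14. CHTF18 and CHTF8, subunits of an alternative PCNA loader, were both lower, with log2 fold changes of -0.37 (adjusted p = 0.000521) and -0.33 (adjusted p = 2.67e-05). DSCC1, a further subunit of this loader, did not pass (log2 fold change -0.06, adjusted p = 0.648). ORC5, another origin recognition subunit, was lower (log2 fold change -0.23, adjusted p = 0.000504), as was E2F7, a repressor of E2F targets (log2 fold change -0.23, adjusted p = 0.000173). RBL2, a pocket protein that represses cell cycle genes, was higher (log2 fold change 0.21, adjusted p = 0.00177), as was RBBP4, a histone chaperone subunit (log2 fold change 0.27, adjusted p = 2.96e-05). On the TPM scale this list gave 15 higher and 3 lower (25% and 5%), near the 20.5% and 4.8% of all tested genes.

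A list of 30 mitosis genes, set beside the replication genes because both vary with the cell cycle, had 20 lower and 0 higher, with a median log2 fold change of -0.196, where 15.1% of all tested genes were lower. On the TPM scale 13 were lower, beside 4.8% of all tested genes, and with length and GC trends removed 27 were lower, beside 15.9%. UBE2C, which works with the anaphase-promoting complex, had a log2 fold change of -0.52 (adjusted p = 1.25e-08), and CDK1, the mitotic kinase, of -0.28 (adjusted p = 2.21e-05). These values stand beside a median of -0.019 for the replication members, and the difference between the lists was not tested.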

How the data were processed

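The deposited table gave the authors' estimated counts (expected counts), with no normalization and 5.52% to 6.33% per library not whole, next to TPM and FPKM values, per the file headers. Other deposited columns were not used: a signal per library (counts over 1 factor) and group means, among them a whole-number score. The genome was GRCh38.p13 (submitters' processing notes). Aligner, counter and strand handling: not given in the sources used here. FPKM sums were 656809 to 668732 in NC and 630332 to 642515 in sgKCNQ3.

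Rounded counts were tested in edgeR 4.0.16 (R 4.3.3) with filterByExpr (minimum count 10, 3635 genes removed), TMM factors, robust quasi-likelihood F tests and Benjamini-Hochberg adjustment over 12565 genes (threshold 0.05). The biological coefficient of variation was 3.62%. An exact test of 3 against 3 libraries cannot go below 0.1, so p-values rest on this model. The script was also run on simulated data. Count differences between libraries exceeded sampling variance 1.63 to 4.17 times within groups and 6.88 to 11.3 times between groups.

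The members, their roles and all lists were chosen with earlier results of these data known. Every member was eligible to be named, and of the other lists the 6 called genes with the smallest p. Lengths, GC content and exon overlaps came from GENCODE 29, and promoters from RefSeq. Alternative settings changed the scaling (RLE, upper quartile, library size), the tool (limma 3.58.1 as voom on counts or as limma-trend on log2(TPM + 1), and DESeq2 1.42.0), the filter (none, or at least 2 CPM in 3 libraries) or the model (a replicate block, length and GC trends removed with natural splines of 5 degrees of freedom, both together). Each library was also omitted once. DCN, on the fibroblast list, is not analysed here.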

Additional observations from a re-analysis of the deposited data

How the results depend on the processing

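Over the 54 members and 17 alternatives (918 comparisons), 792 kept direction and side of the threshold, 63 lost a call and 28 gained one. Of the 36 members that did not pass, 10 were called by at least 1 alternative. Members called higher numbered 8 with library size alone, 12 on log2(TPM + 1) and 8 with length and GC trends removed, and those lower 7 with library size alone, 6 with DESeq2 (10 of the 18 called) and 4 on TPM. Leaving out 1 library gave 4 to 6 higher and 6 to 13 lower, with 6 lower without sgKCNQ3 replicate 1 and 8 without NC replicate 3, and fewer libraries are tested there. The members' median was 0.017 with library size alone, 0.08 on TPM and -0.035 to 0.008 with 1 library left out. The other 60 pathway genes had 15 higher on TPM, 5 with length and GC trends removed, 4 with these and the block, and 5 to 9 with 1 library left out, and they had 8 lower with library size alone, 9 with DESeq2, 3 on TPM and 8 to 15 with 1 library left out. Mitosis genes called lower numbered 13 on TPM and 27 with length and GC trends removed, with or without the block. Other causes were not tested.

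Same-numbered libraries did not deviate together (correlations 0.014, -0.098 and 0.008), so the numbers were not taken as pairs. With the replicate block, 5 members were higher and 12 lower, and CDC6 was the called member that was lost.

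In 14 members that were called neither before nor after, the sign changed in 35 comparisons, with these log2 fold changes. On TPM they were 0.032 for CHAF1A, 0.08 for CHAF1B and for RFC3, 0.043 for DNMT1, 0.089 for MCM5, 0.034 for MCM7 and 0.029 for POLA1. With library size alone they were 0.033 for CHAF1B, 0.014 for MCM5, 0.02 for POLE2 and 0.003 for RFC3. CHAF1B gave 0.003 with RLE, 0.017 with upper quartile and 0.002 with DESeq2, and POLE2 gave 0.004 with upper quartile. With length and GC trends removed, without and with the block, they were 0.007 and 0.007 for MCM5, 0.012 and 0.013 for POLE2, -0.016 and -0.016 for ORC2, and -0.006 and -0.006 for POLD3. With 1 library left out, the ranges were -0.014 to 0.022 for CDC25A, -0.059 to 0.068 for CHAF1B, -0.058 to 0.045 for MCM5, -0.093 to 0.068 for POLE2, -0.083 to 0.015 for RFC3, -0.114 to 0.015 for RFC4, -0.017 to 0.053 for RFC5 and -0.089 to 0.097 for RPA3.

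The depth limits the least abundant members, E2F2, POLE2 and ORC1.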
